A study of Mus musculus with 6 samples.

Results

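The MS4A genes encode small membrane proteins that cross the membrane several times and keep both ends inside the cell. The members described here are the 9 mouse genes Ms4a1, Ms4a2, Ms4a4b, Ms4a4c, Ms4a4d, Ms4a6b, Ms4a6c, Ms4a6d and Ms4a7, out of 18193 genes measured. They were held by all 18 probe sets whose only symbol in the platform's annotation was one of these names, out of 45037 probe sets that were not controls, and no probe set with several symbols named an MS4A gene. The set was proposed with the log2 differences between alopecic and unaffected skin already known, so the members were chosen by those values, which are a description here and support nothing by themselves.

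Total RNA from 6 skin samples of the inbred mouse strain C3H/HeJ was measured on 1 array each. For 3 samples the phenotype was alopecia areata, an autoimmune hair loss, and the tissue was affected alopecic skin. The other 3 were unaffected skin with the phenotype unaffected. Nothing in the labels says that each sample came from a different mouse, so errors and p-values measure the spread between these samples, which may be technical. The series title calls the disease spontaneous. The labels give no age, sex, body site or treatment, and name no allele or agent in either group. Values are on the log2 scale of RMA, which removes background, brings the arrays to a common distribution and joins the probes of a set into 1 number. Differences are alopecic minus unaffected on that log2 scale.

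Family members mark different leukocytes. Ms4a1 encodes CD20 of B cells, and Ms4a2 encodes the beta chain of the high-affinity receptor for IgE on mast cells and basophils. Ms4a4b is known from T cells, where its protein associates with the receptor GITR and modulates activation, while Ms4a7 and the Ms4a6 genes are known from monocytes and macrophages. In bulk skin a difference in the number of such cells and a difference in RNA per cell cannot be told apart.

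One array stood apart in the series. Unaffected replicate 3 held 42.2% of the squared distance from the group means over all genes, against 5.36% to 21.0% for the others. Its hair shaft and sheath genes stood at a median of -8.26 log2 units from unaffected replicates 1 and 2, all 12 measured genes being lowest there. Without this array the difference of Ms4a1 was -0.02 rather than -0.15, that of Ms4a2 -0.32 rather than 0.04, that of Ms4a7 0.39 rather than 0.76, that of Ms4a6c 0.36 rather than 0.94 and that of Ms4a6d 0.79 rather than 1.59. The other 4 members moved by less than 1.5 times.

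The members lie close together on chromosome 19. In the RefSeq annotation of GRCm38.p6 the stretch from Ms4a10 to Ms4a3 holds 22 protein-coding genes, 21 of them named Ms4a, of which 17 were measured. The 7 measured Ms4a genes from Ms4a7 to Ms4a6d stood next to each other there apart from Ms4a4a, which was not analysed here, and Gm8369, and their differences ran from 0.47 to 4.54. The 10 measured Ms4a genes on either side of that run, Ms4a1 and Ms4a2 among them, differed by between -0.25 and 0.41. Most of these 10 were dim, where a difference can hardly show. The lowest of the run, Ms4a4d at 0.47 (SE 0.36), was close to the highest beside it. All 7 genes of the run are members, chosen by these same differences, so nothing is read from the run standing above its neighbours.

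**Figure D1:**
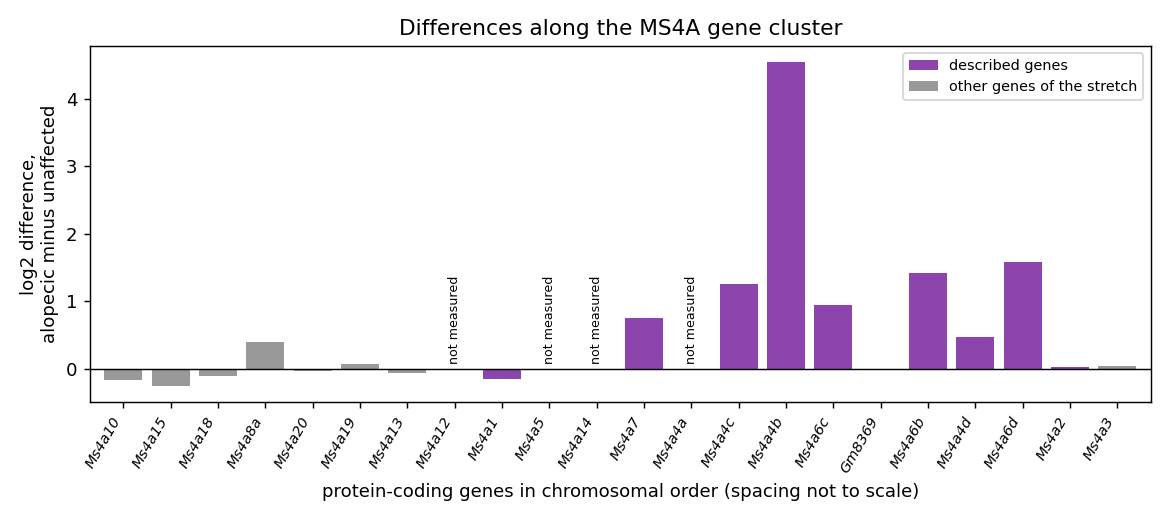
Log2 difference (alopecic minus unaffected, brightest probe set) of each measured gene, in the order of the genes on chromosome 19 and with spacing not to scale; purple bars are the 9 members and grey bars the other genes. The bars above 0.47 stand between Ms4a7 and Ms4a6d, and Ms4a4b at 4.54 is the tallest.

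The stretches before the gene starts are shown for a pair of Ms4a4 genes and a pair of Ms4a6 genes, because members of a pair lie close together in this cluster and their starts proved to be alike. RefSeq start sites of GRCm38.p6 gave a window of 250 bases before the start for 7 of the 9 members, 8 windows in all. Ms4a1 and Ms4a6d had none in the table used. Each sequence is printed 5' to 3' on the plus strand, which is the strand of the gene, and capitals mark the longest run of bases that the members of a pair share. The windows are chr19:11443308-11443557 for Ms4a4b, chr19:11407411-11407660 for Ms4a4c, chr19:11518309-11518558 for Ms4a6b and chr19:11469118-11469367 for Ms4a6c.
Ms4a4b: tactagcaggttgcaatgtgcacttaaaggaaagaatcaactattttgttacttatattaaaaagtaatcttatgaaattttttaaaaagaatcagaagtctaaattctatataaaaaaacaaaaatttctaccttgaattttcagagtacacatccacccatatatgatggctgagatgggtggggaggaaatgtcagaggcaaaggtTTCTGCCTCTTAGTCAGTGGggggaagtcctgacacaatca
Ms4a4c: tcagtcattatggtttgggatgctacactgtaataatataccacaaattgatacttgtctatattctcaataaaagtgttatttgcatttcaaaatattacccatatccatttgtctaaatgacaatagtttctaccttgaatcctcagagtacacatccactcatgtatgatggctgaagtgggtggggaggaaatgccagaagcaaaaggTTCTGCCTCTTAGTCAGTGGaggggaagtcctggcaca
Ms4a6b: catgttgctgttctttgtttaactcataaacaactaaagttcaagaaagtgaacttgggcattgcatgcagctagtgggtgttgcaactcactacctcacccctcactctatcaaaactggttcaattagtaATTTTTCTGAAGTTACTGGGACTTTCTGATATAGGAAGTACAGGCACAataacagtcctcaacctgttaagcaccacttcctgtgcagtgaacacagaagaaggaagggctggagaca
Ms4a6c: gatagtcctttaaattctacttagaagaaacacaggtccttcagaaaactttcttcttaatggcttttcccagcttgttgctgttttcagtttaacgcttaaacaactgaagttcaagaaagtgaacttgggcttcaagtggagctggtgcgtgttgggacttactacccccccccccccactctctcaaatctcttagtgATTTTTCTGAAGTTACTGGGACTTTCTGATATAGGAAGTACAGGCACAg

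The Ms4a6b and Ms4a6c windows shared an unbroken run of 48 bases, and a local alignment of them held 152 identical positions of 182 (83.5%). The Ms4a4b and Ms4a4c windows shared a run of 20 bases and 114 identical positions of 128 (89.1%). No other pair of members had a run longer than 9 bases. The windows were searched on both strands for the core of the interferon stimulated response element, GAAA and GAAA with any 2 bases between them, and for TTCNNNGAA, the STAT element. Neither motif was found in any of the 8 windows, while 2.98% and 7.02% of 32851 windows of the same length over all genes held them. No match says only that these letters are absent from these windows.

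Of the T cell member Ms4a4b, the brightest probe set, 1423467_at, had log2 values of 10.35, 9.19 and 9.19 in alopecic replicates 1, 2 and 3. In unaffected replicates 1, 2 and 3 it had 4.90, 5.54 and 4.66. Every alopecic array was far above every unaffected array, and replicate 1 was the highest of the alopecic arrays. The means were 9.57 ± 0.67 and 5.03 ± 0.45 (SD, n = 3 each), a difference of 4.54 (SE 0.40), or 23.3-fold on the RMA scale. The unaffected values lay below the array medians of 6.11 to 6.17, where RMA compresses differences, so the fold is not an exact ratio.

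Ms4a4b was the 1 member of 9 past the threshold of 0.05 in the limma fit of all genes, with Benjamini-Hochberg adjustment over all of them. In that fit 0.275% of the 18193 genes were called. As this contrast chose the members, nothing is read from that count. The call of Ms4a4b held without alopecic replicate 1 (difference 4.15). It was lost without alopecic replicate 2 (4.73), alopecic replicate 3 (4.73), unaffected replicate 1 (4.47), unaffected replicate 2 (4.79) or unaffected replicate 3 (4.36).

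The second probe set of Ms4a4b, 1425325_at, went with the first in direction but not in size. It had 4.53, 4.47 and 4.57 in the alopecic arrays and 4.18, 4.09 and 4.35 in the unaffected arrays. All alopecic values were again higher, though every value was below the array median, and the difference was 0.32 (SE 0.11, fit of all probe sets).

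The 3 genes whose centred values were most like those of Ms4a4b over the 6 arrays were Oasl2, Igtp and Iigp1, with root mean square differences of 0.30, 0.31 and 0.32 against 2.32 for the size of Ms4a4b's own profile. Oasl2 belongs to the oligoadenylate synthetase family, and Igtp and Iigp1 are interferon-inducible GTPases. Their log2 differences were 4.53, 4.40 and 4.66. As values were centred over all 6 arrays, this likeness is mostly that of the group difference that chose Ms4a4b. No member of the family was among the 3, and the nearest member, Ms4a6b, had a root mean square difference of 1.58.

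Markers of T cells and cytotoxic lymphocytes had higher means in the arrays where Ms4a4b was high. Of 17 measured T cell markers, 0 were called by limma over all genes and 10 had an unadjusted p under 0.05. The share of all genes under that unadjusted p was not computed. Such counts, in this list and those below, are therefore only a description. In 11 of them every alopecic array was above every unaffected array, against 6.93% of all genes, and in 1, Cd4, every alopecic array was below, against 6.12%. Their median difference was 0.76, against -0.01 over all genes, and their summed level on the linear scale ran from 5968 to 7629 in alopecic and from 3198 to 4550 in unaffected arrays. Bcl11b, a transcription factor gene on the T cell list, made up 42.3% to 68.1% of that sum. It was bright in unaffected replicates 1, 2 and 3 too, at 11.3, 10.5 and 11.5. Whether its signal came from T cells was not tested. Without Bcl11b the sum ran from 2373 to 4402 in alopecic and from 1492 to 1709 in unaffected arrays. Bcl11b differed by 0.76 (SE 0.31, adjusted p = 0.708), and Zap70, a kinase of T cell receptor signalling, overlapped between the groups and differed by 0.23 (SE 0.29, adjusted p = 0.900). Of 15 measured cytotoxic lymphocyte markers, 0 were called, 12 had an unadjusted limma p under 0.05 and 14 did not overlap between the groups in the higher direction. Their median difference was 1.58, and their summed level ran from 3705 to 13134 against 709 to 860. With dim genes left out 5 of them remained, with a median of 4.44. That filter used the mean over all 6 arrays, with a cutoff of 7.61. The unaffected means of the 5, from 5.15 to 7.30, lay under it, so they passed through their high alopecic values. Nothing is read from that median. Ccl5, a chemokine, and Ctsw, a protease of cytotoxic cells, differed by 4.80 (SE 0.58, adjusted p = 0.0599) and 1.58 (SE 0.41, adjusted p = 0.467). The part of these cells in the Ms4a4b difference was not tested.

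GITR, the receptor that the Ms4a4b protein associates with, is encoded by Tnfrsf18. It had 9.62, 9.77 and 9.59 in the alopecic arrays and 8.87, 8.87 and 9.09 in the unaffected arrays. The groups did not overlap, with a difference of 0.71 (SE 0.12), but the gene missed the threshold (limma adjusted p = 0.147). Its ligand gene was not analysed here. Of 18 measured genes of the interferon gamma response 11 rose, where 0.275% of all genes were called. All 18 had every alopecic array above every unaffected array, against 6.93% of all genes, and the median difference was 3.36. The named members of that list, Cxcl9, Cxcl10, Iigp1 and Igtp, had differences of 6.23, 5.23, 4.66 and 4.40 (limma adjusted p = 0.0091, 0.0133, 0.0117 and 0.00342). Without unaffected replicate 2 the number of called genes over all lists was 2 rather than 11, without unaffected replicate 1 it was 4 and without alopecic replicate 2 it was 5.

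**Figure D2:**
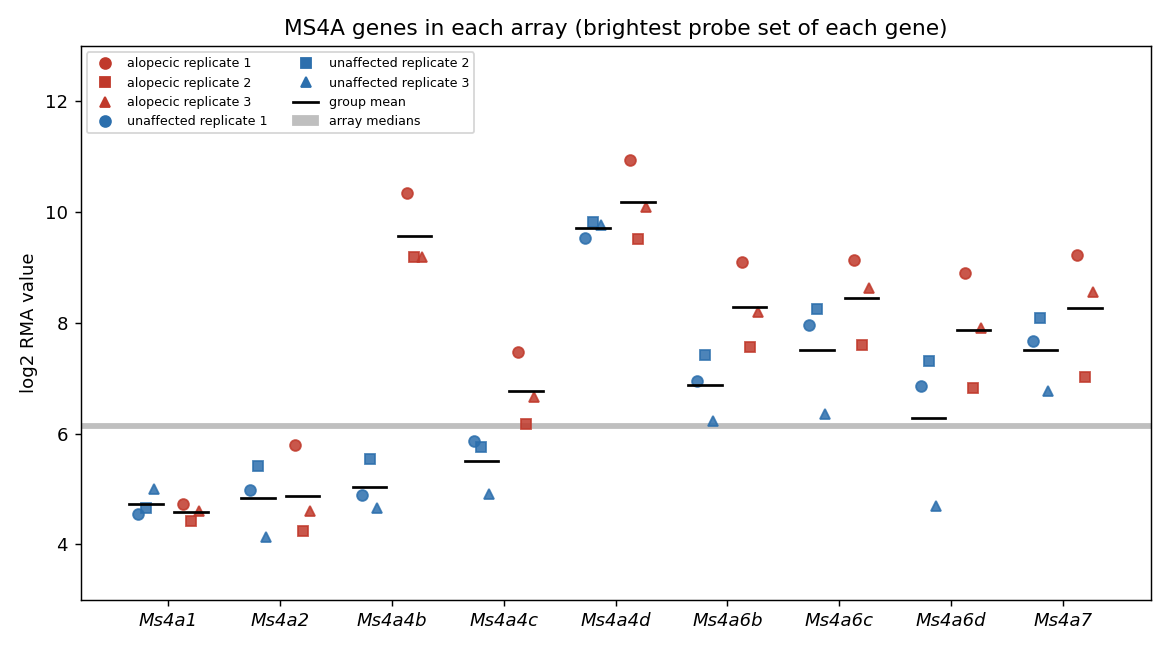
Log2 RMA values of the brightest probe set of each of the 9 genes, with red points for alopecic and blue points for unaffected arrays, a marker shape for each replicate, black bars for group means and a grey band for the array medians. The groups are far apart for Ms4a4b (means 9.57 and 5.03), narrowly apart for Ms4a4c and Ms4a6b, and overlap for the other 6 genes.

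Besides Ms4a4b, the groups did not overlap for 2 genes. Ms4a4c is a close relative of Ms4a4b. Its brightest probe set, 1420671_x_at, had 7.47, 6.17 and 6.65 in alopecic replicates 1, 2 and 3 and 5.86, 5.76 and 4.90 in unaffected replicates 1, 2 and 3. Alopecic replicate 2 lay only just above the highest unaffected array. The means were 6.77 ± 0.66 and 5.51 ± 0.52 (SD, n = 3 each), a difference of 1.26 (SE 0.41) or 2.39-fold.

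The second probe set of Ms4a4c, 1450291_s_at, differed by 1.74 (SE 0.63). Its alopecic values were 7.29, 4.99 and 6.45, and its unaffected values were 4.89, 4.81 and 3.82. It too did not overlap, by a narrow margin at alopecic replicate 2. The endings _x and _s on Affymetrix names mark probe sets whose probes may also match similar transcripts. As both probe sets of Ms4a4c carry such an ending, its signal may hold that of related transcripts.

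Ms4a6b had 9.10, 7.56 and 8.19 in alopecic replicates 1, 2 and 3 and 6.95, 7.42 and 6.23 in unaffected replicates 1, 2 and 3. The groups were separated by the small gap between alopecic replicate 2 and unaffected replicate 2. The difference was 1.42 (SE 0.48), from 6.87 ± 0.60 to 8.28 ± 0.77 (SD, n = 3 each), or 2.67-fold. Its second probe set, 1439956_at, differed by 1.58 (SE 0.31), with 6.68, 5.78 and 6.26 against 4.51, 5.16 and 4.34. For this gene the probe sets gave nearly the same difference. Over all genes, 6.93% had every alopecic array above every unaffected array, as did 3 of the 9 members; the contrast that chose them fixes this count.

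For the other Ms4a6 genes and Ms4a7 the groups overlapped. Ms4a6c had 9.13, 7.60 and 8.63 in the alopecic arrays and 7.95, 8.24 and 6.34 in the unaffected arrays. Alopecic replicate 2 lay below unaffected replicates 1 and 2, and unaffected replicate 3 was lowest of all. The difference was 0.94 (SE 0.62), and it was 0.36 without unaffected replicate 3 and 0.47 with array weights. The second probe set, 1457725_at, was below the array median on all 6 arrays and differed by 0.23 (SE 0.17).

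Ms4a6d had the widest spread of the members. Its brightest probe set, 1419599_s_at, had 8.91, 6.82 and 7.90 in alopecic replicates 1, 2 and 3 and 6.86, 7.31 and 4.69 in unaffected replicates 1, 2 and 3. Unaffected replicate 3 stood at -2.40 from the mean of unaffected replicates 1 and 2, and alopecic replicate 2 lay below both of those. The difference was 1.59 (SE 0.84) with all arrays and 0.79 without unaffected replicate 3. A second probe set, 1419598_at, differed by 0.74 (SE 0.72), and the dimmest, 1449539_at, with all values between 3.15 and 3.52, by -0.12 (SE 0.12). The probe sets of this gene disagreed in direction, the dimmest one being slightly lower in alopecic skin.

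Ms4a7, which marks macrophages, had 9.22, 7.03 and 8.55 in the alopecic arrays and 7.67, 8.08 and 6.77 in the unaffected arrays. Here too alopecic replicate 2 was below unaffected replicates 1 and 2. The difference was 0.76 (SE 0.63), which became 0.28 without alopecic replicate 1 and 1.38 without alopecic replicate 2. Its second probe set, 1445365_at, lay below the array median throughout and differed by 0.20 (SE 0.13).

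Ms4a4d was well above the array median in all arrays. It had 10.94, 9.51 and 10.10 in alopecic replicates 1, 2 and 3 and 9.52, 9.82 and 9.77 in unaffected replicates 1, 2 and 3. Only alopecic replicates 1 and 3 exceeded the unaffected arrays, which lay within a narrow range. The difference was 0.47 (SE 0.36), and it was 0.10 without alopecic replicate 1. This gene had 1 probe set.

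**Figure D3:**
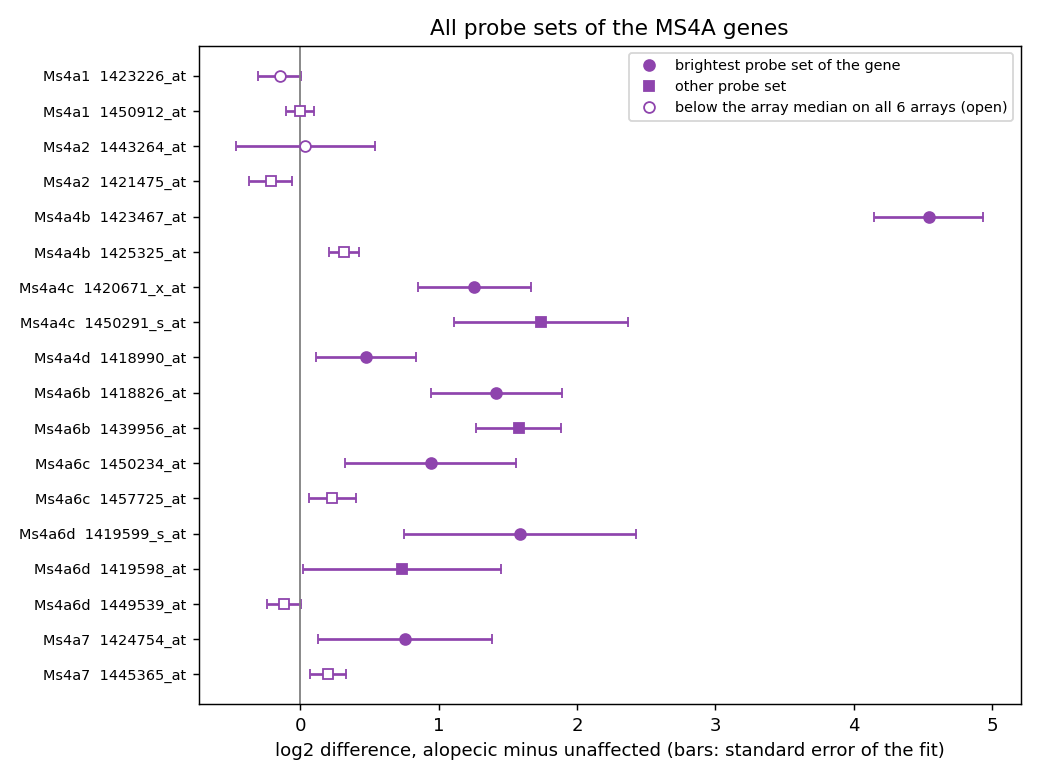
Log2 difference of each of the 18 probe sets in the fit of all probe sets, with bars for the standard error; circles are the brightest probe set of a gene, squares the others, and open symbols lie below the array median on all 6 arrays. The second probe set of Ms4a4b, at 0.32, stands far from the first at 4.54, while the pairs of Ms4a4c and Ms4a6b lie close together.

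Across the family, 8 members had more than 1 probe set. Of the 9 probe sets that were not the brightest of their gene, 7 differed in the same direction as the brightest and 2 in the opposite one, 1 of Ms4a2 and 1 of Ms4a6d. Of these 9, 6 lay below the array median on all arrays. In the fit of all probe sets 1 of 18 was called, 1423467_at of Ms4a4b, and 0.142% of all 45037 probe sets were. In 6 of 18 every alopecic array was above every unaffected array, as in 5.54% of all probe sets.

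The B cell member Ms4a1 was dim in all arrays. Its brightest probe set, 1423226_at, had 4.72, 4.43 and 4.60 in the alopecic and 4.55, 4.65 and 4.99 in the unaffected arrays. The groups overlapped, with a difference of -0.15 (SE 0.16), and the second probe set, 1450912_at, differed by -0.00048 (SE 0.10). Of 18 measured B cell markers 0 were called by limma and 0 had an unadjusted p under 0.05. Their median difference was -0.01 (between 0.004 and 0.11 with any 1 array left out), and 12 of them lay below the array median on all arrays, among them Cd79a, a chain of the B cell receptor chosen after its values were seen, which lay between 4.42 and 4.63. Their summed level ran from 1635 to 2659 in alopecic and from 1678 to 2384 in unaffected arrays. The named markers Blnk, an adaptor of the B cell receptor, and Ighm, the IgM heavy chain, differed by -0.17 (SE 0.37) and -0.06 (SE 0.49), with limma adjusted p of 0.944 and 0.983.

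Ms4a2, the beta chain of the IgE receptor, was also below the array median throughout. Its brightest probe set, 1443264_at, had 5.78, 4.24 and 4.60 in alopecic replicates 1, 2 and 3 and 4.98, 5.41 and 4.13 in unaffected replicates 1, 2 and 3. Alopecic replicate 1 and unaffected replicate 2 were high within their groups, and the groups overlapped widely. The difference was 0.04 (SE 0.51), and it was -0.42 without alopecic replicate 1 and 0.35 without alopecic replicate 2. The second probe set, 1421475_at, differed by -0.21 (SE 0.16).

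Mast cell genes varied within the groups, and not all in the same way. Cpa3, a mast cell protease, had 9.50, 5.81 and 6.74 in alopecic replicates 1, 2 and 3 and 9.38, 9.18 and 5.47 in unaffected replicates 1, 2 and 3. It was high in alopecic replicate 1 and in unaffected replicates 1 and 2, and low in the other arrays. Kit, a growth factor receptor, had 7.28, 9.10 and 9.01 in alopecic replicates 1, 2 and 3 and between 6.80 and 9.14 in the unaffected arrays, so that alopecic replicate 1 was the lowest of its group. Of the 15 mast cell markers 12 were highest among alopecic arrays in replicate 1, 6 had the order of replicates 1, 3 and 2 from high to low, and 10 were lowest among unaffected arrays in replicate 3. Of 15 measured mast cell markers 0 were called by limma and 0 had an unadjusted p under 0.05, with a median difference of -0.13 (between -0.20 and 0.03 with any 1 array left out); Cpa3 differed by -0.66 (SE 1.40, adjusted p = 0.940) and Kit by 0.15 (SE 0.80, adjusted p = 0.975). Their summed level ran from 1255 to 2657 in alopecic and from 899 to 2624 in unaffected arrays. Of 5 measured basophil markers none was called by limma and 0 had an unadjusted p under 0.05, with a median difference of 0.14. A higher mean in alopecic skin was seen in 3 of the 5, and 4 lay below the array median on all arrays. The 2 brightest, Il13 and Il3ra, differed by 0.50 (SE 0.20, adjusted p = 0.704) and 0.35 (SE 0.17, adjusted p = 0.767), and the lowest difference of the list was -0.11.

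The other genes of the IgE receptor and its signalling had higher means in alopecic skin in 10 of 10 measured genes, against 48.6% of all genes. By limma 0 of them were called and 2 had an unadjusted p under 0.05, and the median difference was 0.34 (-0.01 without alopecic replicate 1). Plcg2 and Plcg1, phospholipases downstream of the receptor, differed by 0.91 (SE 0.24, adjusted p = 0.46) and 0.33 (SE 0.16, adjusted p = 0.786). Fcer1a, which encodes the alpha chain that binds IgE and was chosen after its values were seen, lay between 3.61 and 4.21 on all arrays and differed by 0.14 (SE 0.17, limma adjusted p = 0.899). Which cells gave the higher means of this list was not tested.

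Within the groups the members shared an order of arrays. It is not separate from the contrast that chose them, since a high alopecic replicate 1 or a low unaffected replicate 3 enlarges the difference. Alopecic replicate 1 was the highest and alopecic replicate 2 the lowest of the alopecic arrays for all 9 members by their brightest probe set, an order that 16.5% of all genes had. For Ms4a4b the values of alopecic replicates 2 and 3 were nearly equal. Unaffected replicate 3 was the lowest unaffected array for 7 of the 9, all but Ms4a1 and Ms4a4d, and for 41.6% of all genes. Over all 18 probe sets the order of the alopecic arrays held for 13, against 17.9% of all probe sets, and unaffected replicate 3 was lowest for 13, against 37.6%. Members are not independent of each other, so these shares are a description.

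Spread within the groups was wide for most members. The median standard deviation within groups was 0.69 for the members and 0.23 for all genes, and among members it ran from 0.19 for Ms4a1 to 1.24 for Ms4a6d. The median over members of alopecic replicate 1 minus alopecic replicate 2 was 1.53, against -0.05 over all genes. The median of unaffected replicate 3 minus the mean of the other unaffected arrays was -0.96 for the members and -0.01 for all genes. These last 2 are medians of signed differences, which cancel where genes go either way. They describe a shared direction of the members and not the size of their spread.

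**Figure D4:**
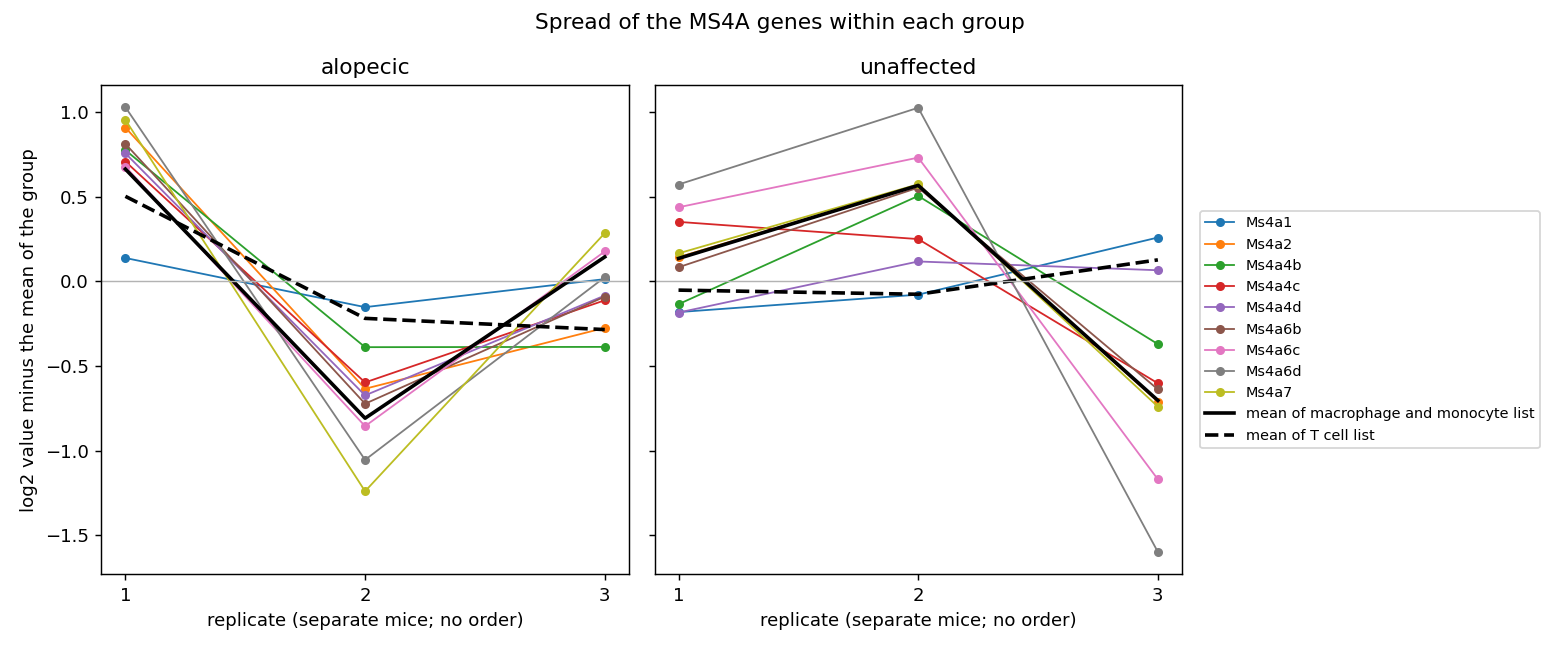
Log2 value minus the mean of its group in the 3 alopecic (left) and 3 unaffected (right) arrays, for the 9 genes (coloured) and the mean of the macrophage and monocyte list (solid black) and T cell list (dashed black); lines join values of a gene and replicates have no order. Alopecic replicate 1 is highest for all 9 genes, and unaffected replicate 3 is lowest for 7 of them. The axis calls the replicates separate mice, which the labels do not state.

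Most macrophage and monocyte markers had the same order of arrays as most members. Of 16 measured markers, 13 had alopecic replicate 1 above replicate 3 above replicate 2, and 14 were lowest among unaffected arrays in replicate 3. Their median of alopecic replicate 1 minus replicate 2 was 1.84, and their median of unaffected replicate 3 minus the other unaffected arrays was -1.15. Of 17 T cell markers 5 had that order of alopecic arrays and 6 were lowest in unaffected replicate 3. The order of alopecic arrays also held for 7 of 15 cytotoxic lymphocyte, 5 of 11 dendritic and Langerhans cell and 6 of 15 mast cell genes. It held for 5 of 18 B cell, 4 of 18 interferon gamma response, 0 of 6 adipocyte and 0 of 7 skeletal muscle genes, against 16.5% of all genes. A low unaffected replicate 3 was not particular to macrophage markers. It was lowest for 12 of 12 hair shaft and sheath, 5 of 6 adipocyte and 8 of 11 dendritic and Langerhans cell genes. The counts were 10 of 15 for mast cell and 12 of 18 for B cell markers, against 41.6% of all genes. They were 5 of 15 for cytotoxic lymphocyte and 0 of 7 for skeletal muscle genes. Alopecic replicate 1 was the highest alopecic array for 13 of 16 macrophage and monocyte, 13 of 17 T cell, 14 of 15 cytotoxic lymphocyte and 17 of 18 interferon gamma response genes, against 33.2% of all genes, so a high alopecic replicate 1 was shared by all of these lists. Adgre1, a marker of macrophages chosen after its values were seen, had 9.65, 7.42 and 8.40 in the alopecic arrays. In the unaffected arrays it had 8.48, 8.56 and 7.55, so its arrays ranked within each group as those of Ms4a6c and Ms4a7 did. Not all markers of the list did so. Mertk, also chosen after its values were seen, had 7.38, 8.26 and 8.15 in the alopecic arrays, with replicate 1 the lowest.

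Between the groups these markers gave no call. Of the 16, 0 were called by limma over all genes and 2 had an unadjusted p under 0.05, with a median difference of 0.31 that was -0.02 without unaffected replicate 3 and 0.80 without alopecic replicate 2. In 3 of the 16 every alopecic array was above every unaffected array, against 6.93% of all genes, and in 1 every alopecic array was below, against 6.12%. These, chosen after their values were seen, were Ccr2, a chemokine receptor of monocytes, with a difference of 2.22 (SE 0.64), the scavenger receptor gene Msr1 with 1.22 (SE 0.33), the Fc receptor gene Fcgr1 with 0.11 (SE 0.10) and the receptor kinase gene Mertk with -0.56 (SE 0.25), with limma adjusted p between 0.491 and 0.864. The summed level of the 16 ran from 4791 to 16997 in alopecic and from 4579 to 10718 in unaffected arrays. Csf1r, the receptor of the macrophage growth factor, and Lyz2, lysozyme, differed by 0.10 (SE 0.41) and 0.35 (SE 0.63), with adjusted p of 0.970 and 0.930. The part of macrophage content in the differences of Ms4a4c, the Ms4a6 genes and Ms4a7 was not tested.

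The receptors linked to MS4A proteins in macrophages gave unlike differences. Clec7a encodes dectin-1, a receptor for fungal glucans, and had 10.88, 9.20 and 8.74 in the alopecic arrays and 6.01, 6.10 and 5.35 in the unaffected arrays. The groups were well apart, with a difference of 3.79 (SE 0.58), but the gene missed the threshold (limma adjusted p = 0.118). Trem2, a lipid-sensing receptor of macrophages chosen after its values were seen, lay between 5.90 and 6.48 on all arrays and differed by -0.10 (SE 0.18, adjusted p = 0.935). Its adaptor Tyrobp differed by 0.29 (SE 0.50, adjusted p = 0.927). By limma 0 of the 4 measured genes of this list were called and 1 had an unadjusted p under 0.05.

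Profiles over the 6 arrays were also compared between members. Of the 36 pairs of members, Ms4a4c and Ms4a6b were closest, with a root mean square difference of centred values of 0.20, followed by Ms4a6c and Ms4a7 at 0.31. Ms4a6b and Ms4a6c, which share the 48-base run before their starts, were at 0.38, and Ms4a4b and Ms4a4c, which share 20 bases, at 1.66. Among all genes, the nearest to Ms4a6b were Sash3, a lymphocyte adaptor, at 0.15, Plac8 at 0.15 and Slamf8, a receptor of myeloid cells, at 0.18. The nearest to Ms4a4c were Pik3ap1, an adaptor of B and myeloid cells, at 0.13, and Cyba, a subunit of the phagocyte NADPH oxidase, and Akna at 0.16 each. For Ms4a6d they were Tnc, a matrix protein, at 0.32, Pla2g7 at 0.34 and Ehf, an epithelial transcription factor, at 0.36. No member was among the 3 nearest genes of Ms4a6b, Ms4a4c or Ms4a6d. Values centred over all 6 arrays hold the group difference that chose the members, so these likenesses are only a description.

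The rest of the family was mostly dim, with 6 of 10 measured genes below the array median on all arrays. Of these 10 genes, 8 further Ms4a genes and the distant relatives Tmem176a and Tmem176b, 0 were called by limma, 1 had an unadjusted p under 0.05, and the median difference was 0.01. With dim genes left out 2 of them remained, with a median of 0.54. Tmem176b had 10.88, 10.42 and 10.67 in the alopecic and 10.16, 10.27 and 9.75 in the unaffected arrays. Its groups did not overlap, with a difference of 0.60 (SE 0.19, adjusted p = 0.593), and Tmem176a differed by 0.49 (SE 0.39, adjusted p = 0.859). Among the 9 members 8 had a higher mean in alopecic skin, as did 48.6% of all genes, and the median difference of the members was 0.94.

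Other cell types of skin were compared in the same fit. Of 11 measured dendritic and Langerhans cell genes 0 were called by limma and 3 had an unadjusted p under 0.05. Their median difference was 0.45 (between 0.25 and 0.67 with any 1 array left out). The mean was higher in alopecic skin for 8 of the 11, and the differences ran from -1.08 to 1.66. The 2 brightest, Epcam and Fscn1, differed by 0.46 (SE 0.31, adjusted p = 0.857) and 1.27 (SE 0.51, adjusted p = 0.692). Epcam, with an unaffected mean of 12.5, made up 52.3% to 68.5% of the summed level of the list. Whether its signal came from these cells was not tested. Of 6 neutrophil genes 0 were called and 0 had an unadjusted limma p under 0.05, with a median difference of 0.05. A higher mean in alopecic skin was seen in 3 of the 6, and 4 lay below the array median on all arrays. The 2 brightest, S100a8 and S100a9, had the largest differences of the list, 0.91 (SE 0.61, adjusted p = 0.857) and 0.73 (SE 0.99, adjusted p = 0.911). In the lists of hair shaft and sheath (12 genes, median 1.18), adipocytes (6 genes, median -0.59) and skeletal muscle (7 genes, median 0.17), 0 were called and 0 had an unadjusted limma p under 0.05. With unaffected replicate 3 left out the hair list median was -1.40; it was 2.43 on leaving out replicate 1 of that group and 2.74 on leaving out its replicate 2. The adipocyte list median was -1.09 on leaving out unaffected replicate 3, -0.12 on leaving out unaffected replicate 2 and -0.20 on leaving out alopecic replicate 3. The muscle list median ran from -0.79 without unaffected replicate 2 to 0.93 without unaffected replicate 3. Of the keratinised hair genes Krt25 and Tchh differed by 2.36 (SE 2.33) and 1.57 (SE 1.76), of the adipocyte genes Fabp4 and Adipoq by -0.42 (SE 0.29) and -0.71 (SE 1.24), and of the muscle genes Acta1 and Myh4 by 0.10 (SE 0.52) and 0.20 (SE 0.51).

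**Figure D5:**
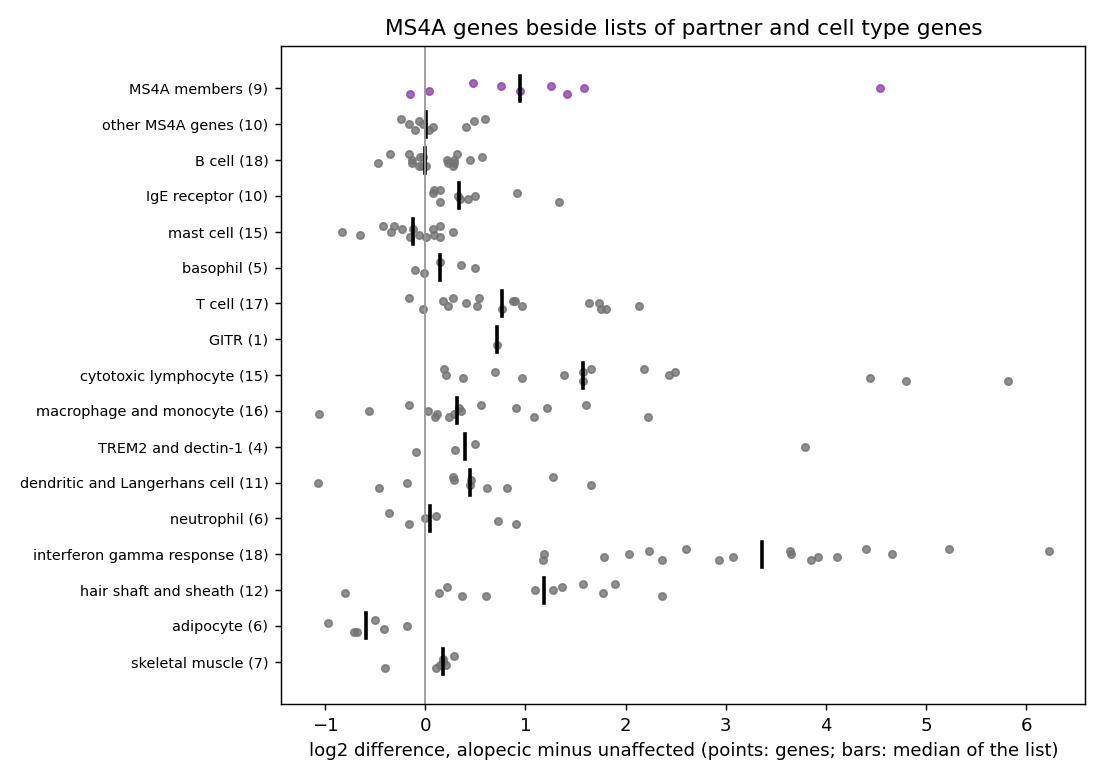
Log2 difference (alopecic minus unaffected) of every measured gene of each list, one list to a line with its number of genes in brackets, and a black bar at the median of the list; purple points are the 9 MS4A members. The medians are 0.94 for the members, 0.01 for the other MS4A genes, 0.31 for macrophages and monocytes, 0.76 for T cells and 3.36 for the interferon gamma response.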

How the data were processed

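The authors deposited 1 value on the log2 scale for each probe set of each array. RMA is named in the submitters' processing notes, and its software and version were not given in the sources used here. RNA was labelled with a 3' kit, per the labels' protocols. The values, from 3.07 to 14.92 with array medians of 6.11 to 6.17, were used without further normalization or filter. The number of arrays limits the precision.

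The platform annotation gave 34945 probe sets a single symbol, updated by gene identifier from the RefSeq table of GRCm38.p6 for 34741; those without a single symbol did not enter the gene fit. The brightest probe set of each of 18193 genes was fitted with limma 3.58.1 in R 4.3.3 (lmFit, eBayes, two-sided, Benjamini-Hochberg over all genes); a second fit took all 45037 probe sets. The fit was tested on simulated data. "Rose" means an adjusted p under 0.05.

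The members and the 16 gene lists (168 of 195 genes measured) were chosen with earlier results of these data known. Named genes are all members, up to 4 called genes of each list or its 2 brightest, and the 3 nearest profiles of members differing by at least 1. Other names were picked with their values in view: Cd4, Cd79a, Fcer1a, Trem2, Adgre1, Ccr2, Msr1, Fcgr1 and Mertk. Promoter windows come from RefSeq; member proteins were not analysed here. Alternatives were the mean of probe sets, leaving out dim features, quantile normalization, median centring, array weights, an intensity trend, a replicate block and leaving out each array.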

Additional observations from a re-analysis of the deposited data

How the results depend on the processing

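Precision is limited by 3 arrays per group and by dim signal: 8 of the 18 member probe sets lay below the array median on all arrays. The count of called members was 1, and 0 with dim genes left out, where 3 members were tested and Ms4a4b was not. Leaving out 1 array gave between 0 and 1 called members, between 4 and 39 called genes over all genes (50 with all arrays), between 0 and 68 called probe sets (64 with all arrays) and between 2 and 12 called genes of the lists (11 with all arrays). Array weights gave 139 called genes and 21 of the lists. Leaving out dim features gave 97 called probe sets and 18 called genes of the lists. With the replicate number as a block, 0 genes, 0 probe sets, 0 members and 0 genes of the lists were called. Deviations of same-numbered arrays correlated at -0.13, -0.20 and -0.33. With 3 arrays per group these values cannot decide whether the numbers pair the arrays. The difference of Ms4a4b was 2.43 with the mean of its probe sets, and those of the members other than Ms4a2 kept their sign in every alternative in which they were tested. Centring or quantile normalization moved the median of all genes by less than 0.1. For the members 1 of 111 alternative values moved by more than the spread within groups. That count is no measure of robustness. An intensity trend, a replicate block and leaving out dim genes leave a member's log2 difference unchanged, so those values could not move. The spread is also wide, so that Ms4a6d at 0.79 without unaffected replicate 3, rather than 1.59, stayed within its 1.24.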
